A study of Solanum lycopersicum with 36 samples.

Results

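Light signalling in plants runs through a small set of regulators, and 5 of their genes were followed over a day in tomato leaf. They were HY5 (Solyc08g061130), COP1 (Solyc12g005950), a second COP1 gene called COP1-like (gene:Solyc11g011980.3), DDB1 (Solyc02g021650, the gene of the high pigment mutant HP1) and DET1 (Solyc01g056340, HP2). These 5 genes of the 34075 identifiers in the count tables were chosen by name and identifier, whatever their values, and all 5 were found and passed the filter on low counts in both assays. None of the 34075 identifiers (0) occurred in the reference gene table used here, which holds the symbols HY5, COP1, DDB1 and DET1 once each, so the pairing of names with identifiers could not be checked and no sequence is shown.

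Leaves of tomato (Solanum lycopersicum) of the genotype HeinZ 1706 were taken from plants 4 weeks old, kept at 25 °C under 12 h of light and 12 h of darkness. The 6 groups were 0, 4 and 8 h of light (Light 0 h, Light 4 h and Light 8 h) and 0, 4 and 8 h of dark (Dark 0 h, Dark 4 h and Dark 8 h), with no other treatment. For each there were 3 libraries made from polyadenylated RNA (mRNA below) and 3 of GMUCT, which sequences the 5′ ends of uncapped and cleaved transcripts and so reads RNA that is being cut or decayed. Dark 0 h thus came after 12 h of light, and Light 0 h after 12 h of darkness. Nothing in the labels says that the 3 libraries came from separate plants, so p-values reflect only the variation among these samples, possibly a technical one.

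Counts in genes ranged from 6632784 to 27126312 in the 18 mRNA libraries and from 15739253 to 20581411 in the 18 GMUCT libraries. Within a group, the libraries correlated at a mean r of 0.956 to 0.985 in mRNA and of 0.956 to 0.983 in GMUCT. Replicate 3 of Dark 4 h in GMUCT, at 0.958, was the only library that correlated best with a library of another time. The Dark 0 h groups stood apart between the assays. Across 9880 genes, the deviation of a time from the daily mean in mRNA correlated with that in GMUCT at r = 0.67 to 0.77 at 5 of the times, but at r = -0.05 at Dark 0 h. The mRNA of Dark 0 h correlated best with GMUCT of Dark 4 h, at r = 0.29. A mix-up of labels or samples at Dark 0 h cannot be told apart from a true difference between the assays, and this bears on every comparison of mRNA with GMUCT at that time. It bears as well on every comparison of Dark 0 h with another time within either assay, as the assay concerned would not be known. The tests over all times are therefore also given without it. Of 8 identifiers listed as leaf mesophyll markers, 7 passed the filter in mRNA, with mean levels of 144.5 to 2785 CPM (CPM being read counts scaled to library size), and all 8 passed in GMUCT.

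COP1 is the substrate-binding part of an E3 ubiquitin ligase that marks proteins that promote light responses for breakdown in the dark, and light withdraws it from the nucleus. HY5, a bZIP transcription factor that drives greening, pigment formation and the opening of the seedling, is its best known target. DDB1 is the adaptor that joins a CUL4 cullin scaffold to substrate receptors, and DET1 forms a complex with DDB1 and COP10 that also keeps light responses low. In tomato, weak mutations in DDB1 or DET1 give plants with deeply pigmented fruit, known as high pigment mutants.

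HY5 and COP1 were high at different times of the day in both assays. In mRNA HY5 was high from Light 4 h to Dark 0 h and low for the rest of the night, while COP1 was highest at Light 0 h and lowest at Dark 0 h. All levels at Dark 0 h, here and below, carry the limit on its labels given above. COP1-like moved over a wider range than either in mRNA and did not follow COP1. DDB1 moved little, and DET1 did not pass the test over the 6 times in either assay, although single times differed in its mRNA. A gene was called where the p-value of edgeR's quasi-likelihood test, with Benjamini-Hochberg adjustment over all genes tested, was under 0.05. By this rule 4 of the 5 genes differed among the 6 times in mRNA, against 70.9% of the 19711 genes tested, and 4 of 5 in GMUCT, against 58.4% of 20696. The exception in both was DET1. Without Dark 0 h the other 4 genes were still called in both assays, with adjusted p from 2.84e-09 to 0.0254. A share this close to that of all genes says nothing particular about these regulators as a group. Since whole leaves were used, fewer cells of a type and less RNA per cell cannot be told apart.

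**Figure D1:**
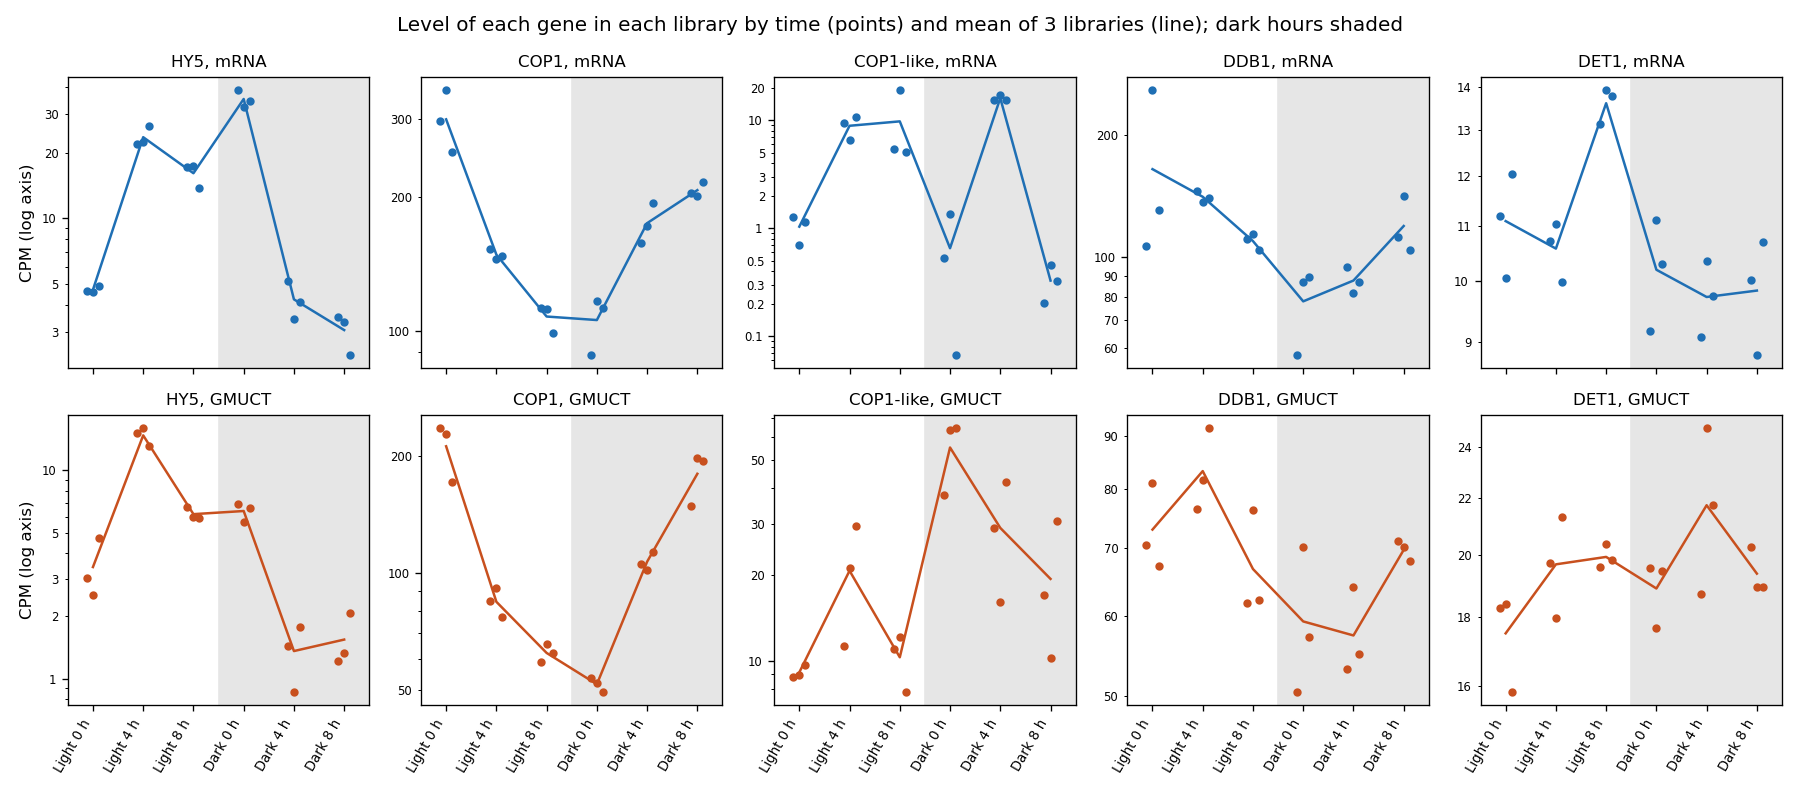
Level of the 5 genes in each library, in CPM on a log axis with its own range in each panel, over the 6 times of the day, for mRNA (upper row) and GMUCT (lower row). Points are libraries, lines join the means of 3 libraries and the dark hours are shaded. HY5 peaks at a mean of 35.3 CPM in mRNA at Dark 0 h, where COP1 is lowest, while DET1 stays between 8.81 and 13.9 CPM in mRNA.

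HY5 mRNA was low at Light 0 h, at 4.65, 4.57 and 4.88 CPM in replicates 1 to 3. At Light 4 h it stood at 21.9, 22.3 and 26.5 CPM, and at Light 8 h at 17.2, 17.3 and 13.8 CPM. The libraries of both times in the light lay above every library of Light 0 h. At the start of the dark the level was the highest of the day, at 38.6, 32.5 and 34.7 CPM. By Dark 4 h it had dropped to 5.16, 3.45 and 4.12 CPM, and the Dark 8 h libraries held 3.51, 3.33 and 2.37 CPM. Dark 0 h overlapped with no other time, while Dark 4 h overlapped with both Light 0 h and Dark 8 h.

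From Light 0 h to Light 4 h HY5 mRNA rose by 2.32 ± 0.18 (SE) on the log2 scale, with adjusted p = 1.87e-08 in edgeR's test. It fell by 0.55 ± 0.17 to Light 8 h (adjusted p = 0.0349), a call that was lost when any of 5 libraries was left out. It then rose by 1.13 ± 0.17 to Dark 0 h (adjusted p = 3.31e-05) and fell by 3.08 ± 0.19, or 8.48-fold, to Dark 4 h (adjusted p = 6.76e-09). The remaining steps, to Dark 8 h and to Light 0 h, did not pass the test, with adjusted p of 0.159 and 0.0731. The order of HY5 mRNA thus ran from Dark 0 h through Light 4 h, Light 8 h, Light 0 h and Dark 4 h to Dark 8 h. Dark 0 h lay above Light 4 h by 0.58 ± 0.17 (adjusted p = 0.00882), a comparison in which 46.9% of all genes were called. Light 8 h lay above Light 0 h by 1.77 ± 0.18 (adjusted p = 2.88e-07, 51.8% of all genes called), and differences between neighbours among the 3 lowest times did not pass. Dark 4 h against Light 0 h gave -0.18 ± 0.19 (adjusted p = 0.559, 21.8% of all genes called).

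In GMUCT, HY5 was highest at Light 4 h and not at Dark 0 h, the time at which the assays did not correlate over genes. Among the other times, Light 4 h was the highest in both assays. Its level was 3.05, 2.51 and 4.75 CPM at Light 0 h and 15.1, 15.96 and 13.1 CPM at Light 4 h. It was 6.65, 5.97 and 5.88 CPM after 8 h of light, and the Dark 0 h libraries held 6.88, 5.67 and 6.599 CPM. Light 4 h overlapped with no other time, while Light 8 h and Dark 0 h overlapped with each other. Later in the night the Dark 4 h libraries held 1.43, 0.863 and 1.78 CPM and those of Dark 8 h 1.22, 1.33 and 2.07 CPM. These values rest on 15 to 37 reads a library, so the lowest levels of uncapped HY5 RNA are the least precise.

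Uncapped HY5 RNA rose by 2.10 ± 0.27 to Light 4 h (adjusted p = 4.16e-05), and fell by 1.25 ± 0.26 to Light 8 h (adjusted p = 0.00375). From Light 8 h to Dark 0 h, where the mRNA rose, the difference in GMUCT was 0.05 ± 0.26 (adjusted p = 0.932). It fell by 2.22 ± 0.28 to Dark 4 h (adjusted p = 5.84e-05). A rise of 1.16 ± 0.28 from Dark 8 h to Light 0 h (adjusted p = 0.0198) was lost when any of 3 libraries was left out, and in a fit of those groups alone (adjusted p = 0.179). Light 4 h, the highest time, exceeded Dark 0 h by 2.31-fold (adjusted p = 0.00261, 27.8% of all genes called). Light 8 h exceeded Light 0 h by 0.84 ± 0.27 on the log2 scale (adjusted p = 0.0201, 37.4% of all genes called, lost without any of 3 libraries). The range of HY5 between its highest and lowest time was 3.49 on the log2 scale in mRNA and 3.39 in GMUCT, above those of 93.5% and 96% of the genes tested.

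COP1 mRNA followed another course. It was highest at Light 0 h, with 298, 348 and 253 CPM in replicates 1 to 3, and had fallen to 153, 146 and 148 CPM at Light 4 h. The Light 8 h libraries held 113, 112 and 99.1 CPM, and those of Dark 0 h 88.7, 117 and 113 CPM. Light 0 h lay above every other time, whereas Light 8 h and Dark 0 h overlapped. The level climbed again to 158, 173 and 195 CPM at Dark 4 h and to 205, 201 and 217 CPM at Dark 8 h. No library of these night times fell within the range of the Light 4 h to Dark 0 h libraries.

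From Light 0 h to Light 4 h COP1 mRNA fell by 1.01 ± 0.15 on the log2 scale, or 2.01-fold (adjusted p = 2.10e-05). A further fall of 0.46 ± 0.15 to Light 8 h passed the test (adjusted p = 0.0380), but was lost without any of 5 libraries. The difference of -0.03 ± 0.15 to Dark 0 h did not pass (adjusted p = 0.903). COP1 mRNA then rose by 0.72 ± 0.15 to Dark 4 h (adjusted p = 0.00174). The steps to Dark 8 h (0.25 ± 0.15, adjusted p = 0.286) and on to Light 0 h (0.53 ± 0.15, adjusted p = 0.0396) were smaller, and the call of the latter was lost without any of 12 libraries, with no filter on low counts (adjusted p = 0.0767) and in a fit of those groups alone (0.214). COP1 at Dark 4 h and Light 4 h, neighbours in the order of levels, differed by 0.24 ± 0.15, which did not pass (adjusted p = 0.207).

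Uncapped COP1 RNA was also highest at Light 0 h. It started from 236, 228 and 172 CPM at Light 0 h, passed 84.5, 91.5 and 77.0 CPM at Light 4 h and reached Light 8 h with 58.9, 65.5 and 62.4 CPM. Dark 0 h was the lowest time, with 53.6, 52.2 and 49.4 CPM. The libraries of these 4 times did not overlap. At Dark 4 h COP1 stood at 105, 102 and 113 CPM, and the libraries of Dark 8 h, at 149, 198 and 194 CPM, overlapped with those of Light 0 h.

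COP1 in GMUCT fell by 1.33 ± 0.14 to Light 4 h, or 2.51-fold (adjusted p = 5.10e-06), and by 0.44 ± 0.13 to Light 8 h (adjusted p = 0.0403, lost without any of 8 libraries and, at 0.0584, with no filter). It rose by 1.05 ± 0.13 to Dark 4 h (adjusted p = 6.44e-05) and by 0.75 ± 0.13 to Dark 8 h (adjusted p = 0.00440, but 0.0888 in a fit of those groups alone). The steps to Dark 0 h (-0.27 ± 0.13) and from Dark 8 h to Light 0 h (0.24 ± 0.13) did not pass, with adjusted p of 0.225 and 0.402. The range of COP1 over the day was 1.5 on the log2 scale in mRNA and 2.02 in GMUCT, above those of 59.8% and 85.9% of genes.

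COP1-like had few reads in mRNA, and they came and went between neighbouring times. Its counts were 36, 9 and 20 reads at Light 0 h (1.26, 0.697 and 1.14 CPM), 9, 39 and 1 at Dark 0 h (0.53, 1.355 and 0.0674 CPM) and 5, 7 and 5 at Dark 8 h (0.202, 0.457 and 0.32 CPM). At Light 4 h there were 164, 102 and 159 reads (9.41, 6.51 and 10.6 CPM), and at Dark 4 h 98, 297 and 349 reads (15.3, 17.1 and 15.5 CPM). The libraries of these high times lay above all those of the 3 low times. At Light 8 h the replicates disagreed, with 79, 234 and 64 reads (5.35, 18.8 and 5.01 CPM), so that replicate 2 held the highest level of any library.

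COP1-like mRNA rose by 3.05 ± 0.55 on the log2 scale over the first step, to Light 4 h (adjusted p = 0.000165), and the difference to Light 8 h, 0.13 ± 0.48, did not pass (adjusted p = 0.897). It fell by 3.73 ± 0.57 to Dark 0 h (adjusted p = 3.31e-05). The change was -2.83 without replicate 2 of Light 8 h and -4.93 without replicate 2 of Dark 0 h. It then rose by 4.45 ± 0.58 to Dark 4 h (adjusted p = 2.75e-05), or by 5.65 without replicate 2 of Dark 0 h, and fell by 5.65 ± 0.65 to Dark 8 h (adjusted p = 1.19e-05). In the order of its levels, the difference of Dark 4 h from Light 8 h did not pass the test (0.72 ± 0.48, adjusted p = 0.244, 40.7% of all genes called). Nor did those among the low times. Dark 8 h against Dark 0 h gave -1.20 ± 0.73 (adjusted p = 0.241, 25.6% of all genes called). Light 0 h against Dark 8 h gave 1.74 ± 0.71 (adjusted p = 0.198), although the libraries of this pair did not overlap.

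In GMUCT COP1-like was well covered, with 147 to 1298 reads a library. It held 8.80, 8.97 and 9.67 CPM at Light 0 h, 11.3, 21.1 and 29.5 CPM at Light 4 h and 11.01, 12.15 and 7.81 CPM at Light 8 h. At Dark 0 h, when its mRNA was near the floor, it stood at 37.7, 63.5 and 64.6 CPM. Dark 4 h gave 29.1, 16.1 and 41.9 CPM and Dark 8 h 17.0, 10.3 and 30.7 CPM. The Dark 0 h libraries overlapped with those of Dark 4 h through a single library, and the spread within Light 4 h, Dark 4 h and Dark 8 h was wide. Replicate 2 of Dark 4 h, the lowest of its group, was also the GMUCT library with the largest share of reads placed at several positions, 40.2%, and the part of this in its level was not tested.

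Uncapped COP1-like RNA rose by 2.42 ± 0.42 over the step from the light into Dark 0 h (adjusted p = 0.00184), the step over which the mRNA fell. A rise of 1.17 ± 0.41 over the first step of the day passed (adjusted p = 0.0411) but was lost without any of 7 libraries, and none of the other 4 steps passed, with adjusted p from 0.0976 to 0.445. Dark 0 h exceeded Light 4 h by 1.42 ± 0.40 (adjusted p = 0.0155, but 0.0715 without replicate 1 of Light 4 h), while Dark 8 h and Light 4 h, neighbours in the order, differed by -0.10 ± 0.40 (adjusted p = 0.879, 33.8% of all genes called). The range of COP1-like, 5.22 on the log2 scale in mRNA and 2.54 in GMUCT, exceeded those of 98.4% and 91.9% of genes. Without Dark 0 h the gene still differed among the other times, with adjusted p = 3.27e-07 in mRNA and 0.0159 in GMUCT.

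DDB1 mRNA had its lowest mean at the start of the dark, and its high times were Light 0 h and Light 4 h. Its mean was 165 ± 80.8 CPM (SD, n = 3) at Light 0 h, 141 ± 4.67 CPM at Light 4 h and 109.6 ± 5.04 CPM after 8 h of light. The Dark 0 h mean was 78.0 ± 17.6 CPM, followed by 87.7 ± 6.45 CPM at Dark 4 h and 119 ± 19.5 CPM at Dark 8 h. The wide spread at Light 0 h came from replicate 2, at 257 CPM against 106 and 131 CPM, and these lower values lay below every Light 4 h library, so the order of Light 0 h and Light 4 h turned on replicate 2. None of the 6 steps passed the test, with adjusted p from 0.113 to 0.663, but the gene differed among the 6 times (adjusted p = 0.00505). The log2 difference of Dark 0 h from Light 0 h was -1.08 ± 0.24 (adjusted p = 0.00206), or -0.62 without replicate 2 of Light 0 h, and from Light 4 h it was -0.85 ± 0.24 (adjusted p = 0.00763).

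Uncapped DDB1 RNA kept between 50.5 and 91.7 CPM in all 18 libraries. Its means were highest at Light 4 h, at 83.2 ± 7.81 CPM, and lowest at Dark 4 h, at 57.4 ± 5.78 CPM, and no library of either group lay within the range of the other. It differed among the 6 times (adjusted p = 0.0205), but not without replicate 3 of Light 4 h (adjusted p = 0.0713). Over a day its range was 1 on the log2 scale in mRNA and 0.54 in GMUCT, above those of 35.2% and 19.8% of genes. The median range of all genes was 1.27 and 0.98.

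DET1 was the steadiest of these genes. In mRNA it ranged from 8.81 to 13.9 CPM over the 18 libraries, and Light 8 h, at 13.1, 13.9 and 13.8 CPM, was the one time whose libraries lay above all others. DET1 mRNA fell by 0.41 ± 0.15 between that time and Dark 0 h (adjusted p = 0.0330), a call lost without any of 8 libraries, with no filter (adjusted p = 0.11) and in a fit of those groups alone (0.104). Over all 6 times the test gave adjusted p = 0.0603, and 0.0447 without Dark 0 h. In GMUCT its levels lay between 15.8 and 24.8 CPM with every group overlapping others (adjusted p = 0.308). Its range of 0.48 in mRNA and 0.31 in GMUCT exceeded those of 7% and 4.9% of genes.

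The cosine and sine of 24 h, with the 6 groups placed at 0, 4, 8, 12, 16 and 20 h, gave a fitted peak time for each gene. A fixed period over a single day in light and dark cannot tell a clock from a response to light. The test called 4 of 5 genes in mRNA, against 68.2% of all genes, and 4 of 5 in GMUCT, against 62.7%, DET1 again being the exception. The fitted peak of HY5 lay at 8.3 h in mRNA and 6.1 h in GMUCT, with log2 amplitudes of 1.70 and 1.57. In mRNA this fitted peak was not the time of the highest level. The HY5 mRNA mean was 16.1 CPM at Light 8 h, below both 23.5 CPM at Light 4 h and 35.3 CPM at Dark 0 h. COP1 peaked at 22.1 h and 21.9 h, with amplitudes of 0.70 and 1.03, and DDB1 at 1.2 h and 2.3 h, with amplitudes of 0.52 and 0.24. COP1-like was fitted with peaks at 8.2 h in mRNA and 13.8 h in GMUCT, but its mRNA had separate maxima in light and dark that a single wave does not describe. Its call in GMUCT was lost without Dark 0 h (adjusted p = 0.0630). The adjusted p-values of HY5 were 1.52e-11 in mRNA and 5.85e-08 in GMUCT, and those of COP1 were 4.86e-08 and 1.48e-09. Without Dark 0 h they were 1.22e-09 and 6.52e-07 for HY5, 8.46e-07 and 3.23e-07 for COP1, and 0.00658 and 0.00727 for DDB1. The peaks given above use all 6 times. A difference of peak between the assays, as for HY5, therefore includes Dark 0 h, where the assays did not correlate over genes.

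Over the first step, from Light 0 h to Light 4 h, HY5 and COP1-like rose and COP1 fell in both assays, so that 3 of 5 genes were called where 47.2% of all genes were in mRNA and 30.6% in GMUCT. Between Light 4 h and Light 8 h 2 genes, HY5 and COP1, fell in both assays (16.7% of all genes called in mRNA and 13.4% in GMUCT). At the next step, to Dark 0 h, 3 genes were called in mRNA (43.7% of all genes) and 1 gene, COP1-like, in GMUCT (8.67%). Over the step to Dark 4 h 3 genes were called in mRNA (23.7%) and 2 genes, HY5 and COP1, in GMUCT (25.8%). Over Dark 4 h to Dark 8 h the call was COP1-like in mRNA (15.4%) and COP1 in GMUCT (4.19%). Over Dark 8 h to Light 0 h it was COP1 in mRNA (5.92%) and HY5 in GMUCT (6.25%). The GMUCT shares into Dark 0 h and Dark 8 h rest on 1795 and 867 genes, numbers that ran from 791 to 2350 and from 323 to 988 when 1 library was left out.

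**Figure D2:**
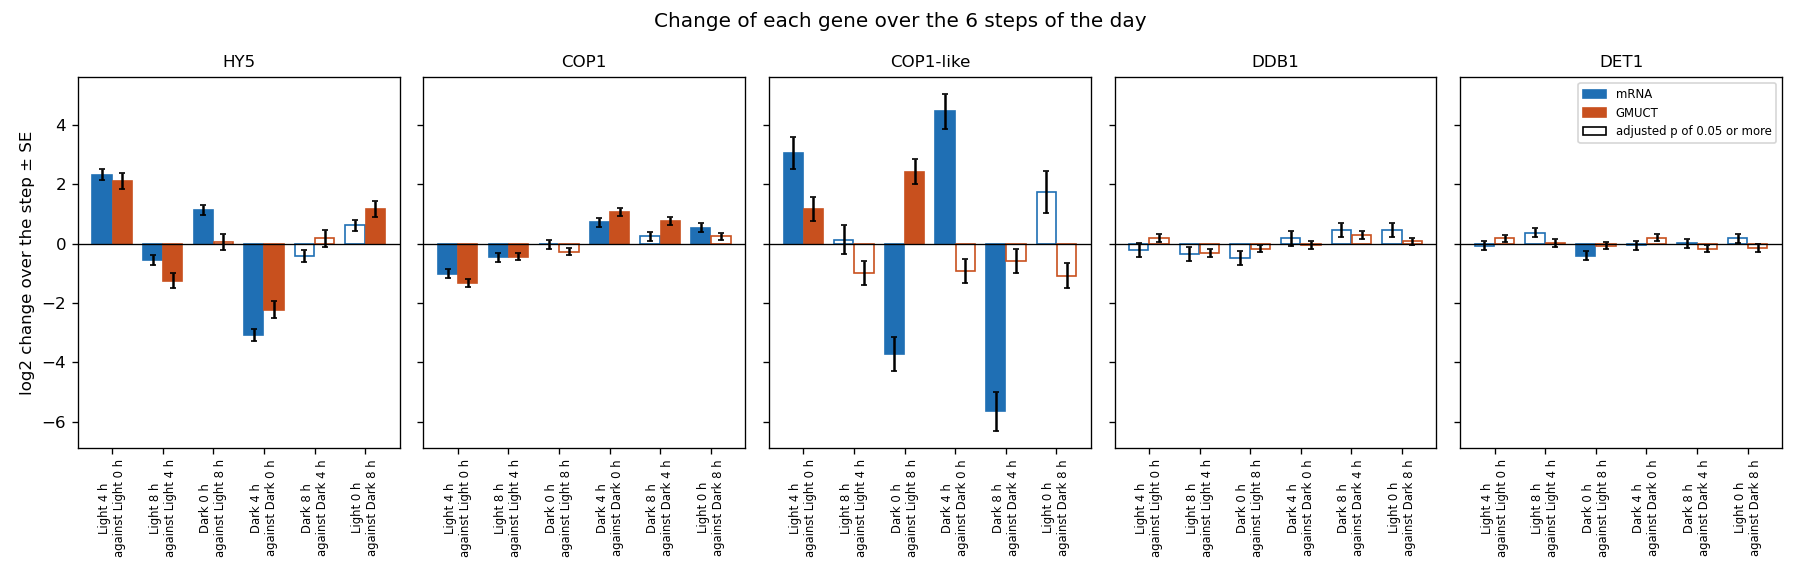
Change of each gene over the 6 steps of the day, as log2 change with its approximate SE, in mRNA (blue) and GMUCT (orange), with bars for an adjusted p of 0.05 or more left unfilled. HY5 and COP1 mostly move the same way in both assays, whereas COP1-like falls by 3.73 in mRNA and rises by 2.42 in GMUCT from Light 8 h to Dark 0 h.

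When dark was set against light at the same hour of each phase, HY5 was lower in the dark at hours 4 and 8. The log2 difference of HY5 mRNA was -2.5 ± 0.19 at hour 4 (adjusted p = 6.71e-09) and -2.38 ± 0.19 at hour 8 (adjusted p = 1.54e-08). In GMUCT the differences were -3.42 ± 0.29 (adjusted p = 2.26e-07) and -2 ± 0.28 (adjusted p = 6.45e-05). At hour 0 the pair is of another kind, as Dark 0 h follows 12 h of light and Light 0 h follows 12 h of darkness. There the sign turned, with HY5 higher at Dark 0 h than at Light 0 h by 2.90 ± 0.19 in mRNA (adjusted p = 2.68e-09). In GMUCT the same difference was 0.89 ± 0.27 (adjusted p = 0.0120), which was lost without replicate 2 of Light 0 h (adjusted p = 0.0643).

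COP1 was lower at Dark 0 h than at Light 0 h, with log2 differences of -1.5 ± 0.15 in mRNA (adjusted p = 5.83e-07) and -2.03 ± 0.14 in GMUCT (adjusted p = 1.41e-08). At hour 8 it was higher in the dark, by 0.94 ± 0.15 (adjusted p = 3.70e-05) and 1.53 ± 0.14 (adjusted p = 6.61e-07). COP1-like mRNA at hour 8 gave -4.93 ± 0.65 (adjusted p = 4.80e-06), or -4.02 without replicate 2 of Light 8 h, and in GMUCT it was higher at Dark 0 h than at Light 0 h by 2.59 ± 0.42 (adjusted p = 0.000128). Its mRNA at hour 0 gave -0.54 ± 0.61 (adjusted p = 0.517). At hour 4 its sign was the other way, at 0.85 ± 0.48 (adjusted p = 0.156, but 0.00592 in a fit of those groups alone). DDB1 at hour 4 gave -0.68 ± 0.24 in mRNA (adjusted p = 0.0280, lost without any of 3 libraries) and -0.54 ± 0.13 in GMUCT (adjusted p = 0.00573). DET1 mRNA at hour 8 gave -0.47 ± 0.15 (adjusted p = 0.0153, lost without either of 2 libraries and, at 0.0595, in a fit of those groups alone). Of the 5 genes, those called at hours 0, 4 and 8 were 3, 2 and 4 in mRNA and 3, 2 and 2 in GMUCT. The shares of all genes called were 36.9%, 45.7% and 50.1% in mRNA and 46.5%, 33.3% and 32.8% in GMUCT.

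The ratio of GMUCT to mRNA asks whether the uncapped RNA of a gene follows its mRNA. An interaction of assay with time was tested over 19161 genes, and the ratio is a relative measure within the scaling of each assay. HY5, COP1, COP1-like and DET1 were called, 4 of 5 genes against 53.7% of all genes, while DDB1 was not (adjusted p = 0.233). Without Dark 0 h the call of COP1 was lost (adjusted p = 0.0531), that of HY5 was near the threshold (adjusted p = 0.0429), and COP1-like and DET1 kept theirs, at adjusted p of 1.77e-05 and 0.0393. The call of DET1 was also lost without any of 27 of the 36 libraries.

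**Figure D3:**
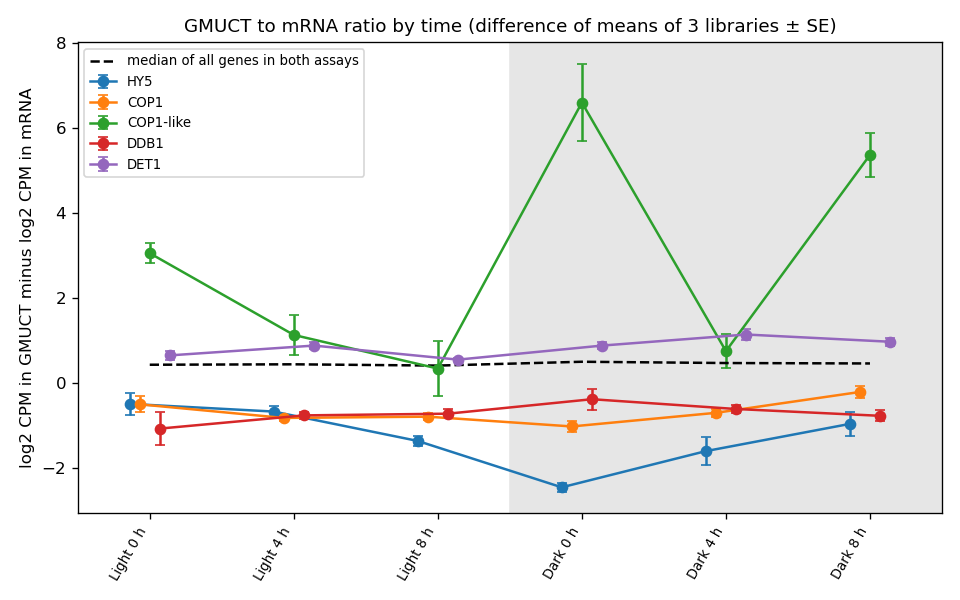
GMUCT to mRNA ratio of the 5 genes over the day, as mean log2 CPM in GMUCT minus that in mRNA, with the SE from 3 libraries of each assay, and the median of 19161 genes as a dashed line. COP1-like reaches 6.59 at Dark 0 h and 5.36 at Dark 8 h, times at which its mRNA is near the floor. HY5 falls to -2.45 at Dark 0 h, and the other genes move over narrower ranges than HY5 and COP1-like.

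COP1-like stood out by this measure. Its log2 CPM in GMUCT exceeded that in mRNA by 3.05 at Light 0 h, by 1.13 at Light 4 h and by 0.34 at Light 8 h. In the dark it was 6.59 at Dark 0 h, then 0.75 at Dark 4 h, and again 5.36 at Dark 8 h. Its ratio was thus high at the times when its mRNA was low, and at Dark 0 h and Dark 8 h it exceeded the ratios of 99.8% and 99.7% of genes. These times had 1 to 39 mRNA reads a library, and a low mRNA raises the ratio by itself. In GMUCT, Dark 0 h was highest, at a mean of 55.3 CPM. Dark 8 h and Light 0 h, at 19.3 and 9.15 CPM, were not above Light 4 h, at 20.6 CPM. The ratio rose by 6.10 ± 0.74 over the step into Dark 0 h (adjusted p = 2.52e-07), or by 5.21 without the Light 8 h mRNA library of replicate 2 and by 7.34 without the same replicate of Dark 0 h. It fell by 5.36 ± 0.72 to Dark 4 h (adjusted p = 3.80e-06), with a change of -6.58 without replicate 2 of mRNA at Dark 0 h, and rose by 5.05 ± 0.80 to Dark 8 h (adjusted p = 0.000758).

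HY5 went the other way at the end of the light. Its log2 CPM in GMUCT minus that in mRNA went from -0.49 at Light 0 h through -0.67 at Light 4 h and -1.36 at Light 8 h to -2.45 at Dark 0 h, and then to -1.60 at Dark 4 h and -0.96 at Dark 8 h. The ratio of HY5 at its lowest, at Dark 0 h, exceeded those of 4.7% of genes. Into Dark 0 h the ratio fell by 1.11 ± 0.30 (adjusted p = 0.00421), and the next step, 0.86 ± 0.33, just missed the threshold (adjusted p = 0.0504). COP1 had its lowest ratio at Dark 0 h, -1.02, and its highest at Dark 8 h, -0.21, with no step called. Between these times the COP1 ratio differed by 0.81 ± 0.19 (adjusted p = 0.00256 in the interaction test), a comparison that rests on Dark 0 h. At the 6 steps in the order of the day from Light 0 h, 0, 0, 2, 1, 1 and 0 of the 5 genes were called in the ratio. The shares of all genes were 12.5%, 5.46%, 39.7%, 25.9%, 3.17% and 0.882%.

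Counts of both genes in the same library give a ratio that needs no scaling between libraries. The log2 ratio of HY5 to COP1 reads in mRNA started at -5.97 ± 0.28 (SD, n = 3) at Light 0 h, and was -2.67 ± 0.17 at Light 4 h and -2.75 ± 0.08 after 8 h of light. The dark libraries gave -1.58 ± 0.34 at Dark 0 h, then -5.36 ± 0.39 at Dark 4 h and finally -6.09 ± 0.36 at Dark 8 h. In GMUCT the means in the same order were -5.97, -2.52, -3.33, -3.02, -6.33 and -6.87. In both assays the libraries of Light 4 h, Light 8 h and Dark 0 h lay above all libraries of the other times.

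**Figure D4:**
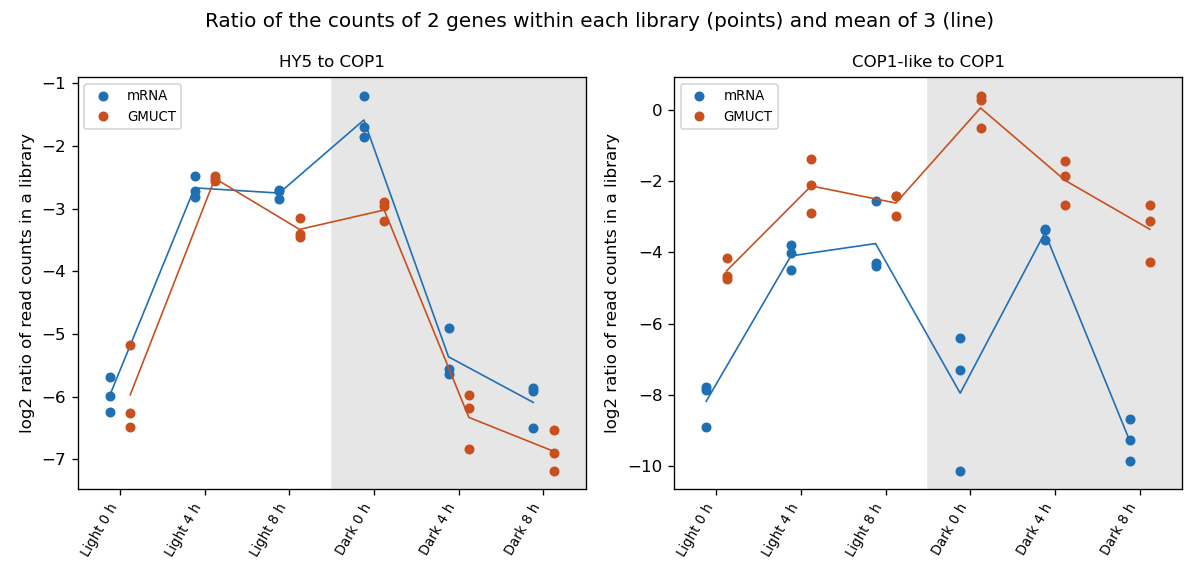
Log2 ratio of the read counts of HY5 to COP1 (left) and of COP1-like to COP1 (right) within each library, by time, in mRNA (blue) and GMUCT (orange), with lines through the means of 3 libraries and the dark hours shaded. HY5 to COP1 is high from Light 4 h to Dark 0 h in both assays, and COP1-like to COP1 reaches 0.05 in GMUCT at Dark 0 h, where its mean in mRNA is -7.95.

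Over the 9 dark and 9 light libraries, the log2 ratio of HY5 to COP1 differed by -0.55 in mRNA and by -1.47 in GMUCT. Neither passed an exact two-sided permutation test, with adjusted p of 0.519 and 0.162 over 4 such ratios. Without the groups of hour 0, the differences were -3.02 and -3.67, with every dark library below every light library. Each had adjusted p = 0.00433 in the exact permutation test, from the smallest p that 6 against 6 libraries allow. These libraries came from hours 4 and 8 alone, so this p repeats the separation given above and does not measure dark against light. The hour 0 groups left out ran the other way. Their means were -1.58 (Dark 0 h) and -5.97 (Light 0 h) in mRNA, and -3.02 and -5.97 in GMUCT. The ratio of COP1-like to COP1 differed by -1.55 in mRNA and 1.33 in GMUCT, with adjusted p of 0.282 and 0.162 by the same exact test. Without the groups of hour 0 it differed by -2.43 and -0.29, with adjusted p of 0.205 and 0.558. The sign in GMUCT thus turned. The 9 libraries of a phase are 3 times of 3 libraries and share those times. Those counted as dark include Dark 0 h, which follows 12 h of light, and those counted as light include Light 0 h, which follows 12 h of darkness.

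Other parts of the pathway were taken from lists of identifiers drawn up from general knowledge, with earlier results of these data known. The sources used here do not annotate these identifiers, so they are given as counts. Their shares beside those of all genes are a description and not an independent test. Of 10 identifiers listed as photoreceptors, which absorb the light signal and act on COP1, 9 were tested and 8 differed among the times in each assay, against 70.9% of all genes in mRNA and 58.4% in GMUCT, shares that apply to each list here. Their median range was 1.19 on the log2 scale in mRNA and 1.24 in GMUCT, near or above the medians of all genes. Of 6 listed phytochrome-interacting factors, transcription factors that oppose light responses, 5 differed in mRNA and 6 in GMUCT. Of 3 listed B-box proteins, cofactors of HY5, 2 were tested and both differed in each assay.

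All 10 identifiers listed as genes that HY5 orthologues bind or act on differed among the times in each assay (70.9% and 58.4% of all genes), with median ranges of 2.81 in mRNA and 3.56 in GMUCT. From Light 0 h to Light 4 h, when HY5 rose, 5 of the 10 rose and 2 fell in mRNA, where 22.4% of all genes rose and 24.8% fell, with a median change of 1.02 on the log2 scale. From Light 8 h to Dark 0 h HY5 mRNA rose again. Of the 10, 9 fell and none (0) rose in mRNA at this step, where 22.7% of all genes fell and 21% rose, with a median of -2.17. In GMUCT 3 of the 10 fell at that step (4.01% of all genes), with a median of -0.10. Their mRNA was thus not highest at Dark 0 h for any of the 10, where that of HY5 was. This contrast rests on the mRNA of Dark 0 h, the time at which the assays did not correlate over genes. All 7 leaf markers tested in mRNA fell at the same step as well, with a median of -2.09, while the medians over all genes at this step were -0.02 in mRNA and 0 in GMUCT.

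The genes whose log2 CPM ran most like each regulator over the 18 libraries of an assay are named as a description, among 10801 or 10802 genes in mRNA and 12565 or 12566 in GMUCT with a mean of at least 10 CPM. They share libraries and times with it. For HY5 the closest was gene:Solyc09g009420.1 in mRNA (Pearson r = 0.976), which was also highest at Dark 0 h, and Solyc06g005750 in GMUCT (r = 0.959), highest at Light 4 h. For COP1 they were Solyc11g008900 (r = 0.970) and Solyc10g011670 (r = 0.991), both highest at Light 0 h. COP1-like was closest to Solyc07g045540 in mRNA (r = 0.940), highest at Dark 4 h, and to Solyc06g009130 in GMUCT (r = 0.933), highest at Dark 0 h. DDB1 was closest to Solyc02g084380 (r = 0.917) and Solyc03g007120 (r = 0.926), and DET1 to Solyc03g116870 (r = 0.863) and Solyc02g091430 (r = 0.693).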

How the data were processed

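The authors deposited raw read counts per gene, 1 table per library, with 34075 identifiers. The tools named are cutadapt, STAR 2.4.2a and HTSeq, per the submitters' processing notes. Genome build, strand setting and options are not given in the sources used, so reads of overlapping genes cannot be told apart, nor can reads shared by COP1 and COP1-like. Counters of unassigned reads in the tables were dropped before scaling. Reads in genes made up 88 to 90.2% of mRNA counts and 54.4 to 85.3% of GMUCT counts.

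The deposited counts were fitted with edgeR 4.0.16 (R 4.3.3) over all genes past filterByExpr, with library sizes scaled by the trimmed mean of M values (TMM), 6 group means an assay, and quasi-likelihood tests adjusted by Benjamini and Hochberg within each test. The ratio was the interaction of assay and time in 1 fit of 36 libraries. The SE is the absolute log2 change divided by the square root of F. CPM values are TMM-scaled within an assay, log2 CPM values have a prior count of 2, and within-library ratios a pseudocount of 0.5. The tests were tried on simulated counts. Alternatives were size factors by relative log expression, no filter, DESeq2 1.42.0, fits of the compared groups, a replicate block, leaving out each library, and leaving out Dark 0 h, the last for the 24 h test chosen after seeing the data. The genes, lists and tests were chosen with earlier results of these data known. All 5 genes are named whatever their values, with the most alike gene per assay.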

Additional observations from a re-analysis of the deposited data

Results flagged for a closer look

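Over 3 of the steps the change in GMUCT differed from the change in mRNA for HY5 or COP1-like, by the interaction test of edgeR. For HY5 the step into Dark 0 h differed by -1.11 on the log2 scale (adjusted p = 0.00421), with changes of 1.13 in mRNA and 0.05 in GMUCT. For COP1-like the differences were 6.10 into Dark 0 h (adjusted p = 2.52e-07), -5.36 into Dark 4 h (adjusted p = 3.80e-06) and 5.05 into Dark 8 h (adjusted p = 0.000758). The first 3 rest on Dark 0 h, where the assays did not correlate over genes (r = -0.05). The last does not use Dark 0 h, and rests on 5, 7 and 5 mRNA reads at Dark 8 h.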

How the results depend on the processing

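No called difference changed sign under any alternative run. Without Dark 0 h, the adjusted p of the ratio over all times was 0.0531 for COP1, that of the 24 h test in GMUCT was 0.063 for COP1-like, and DET1 in mRNA passed over all times (0.0447) and in the 24 h test (0.0428). The genes of the ratio past the threshold then fell from 10286 to 6537. The ratio call of DET1 was lost with no filter (0.0944) and with size factors by relative log expression (0.0554), which also let the 24 h test of DET1 in mRNA pass (0.0452). With DESeq2, 7 step differences of the ratio were called in place of 4. Without the groups of hour 0, HY5 to COP1 differed by -3.02 in mRNA and -3.67 in GMUCT. The difference of COP1-like to COP1 in GMUCT, not called in either run, went from 1.33 to -0.29. Leaving out each library gave adjusted p of 0.0418 to 0.59 for the ratio of DDB1, 0.0225 to 0.107 for that of DET1, 0.00606 to 0.0713 for DDB1 in GMUCT and 0.0348 to 0.155 for the 24 h test of DET1 in mRNA. The causes were not tested.

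Replicate numbers showed little pairing of the libraries in mRNA, while some pairing in GMUCT remained possible. Same-numbered libraries of different times correlated at r from -0.3 to 0.3 in mRNA and from -0.45 to 0.46 in GMUCT. Of 45 such pairs, 6 in mRNA and 17 in GMUCT were over 0.1. In the same order, 7 and 10 of 18 libraries correlated best with their own number. With the replicate block the ratio call of DET1 was lost (adjusted p = 0.0757), as were the COP1 mRNA steps to Light 8 h (0.051) and Light 0 h (0.0563). The steps called were 11, 10 and 4 in mRNA, GMUCT and the ratio, against 13, 10 and 4.

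Fits of the 2 groups compared lost 15 differences of single genes and gained 5. Counts of all genes called at a step moved by over 1.5 times when only the 2 groups compared were fitted. In mRNA they were 5223 in place of 3291 for Light 8 h against Light 4 h, 2868 in place of 4664 for Dark 4 h against Dark 0 h, and 1616 in place of 3032 for Dark 8 h against Dark 4 h. In GMUCT, 2841 replaced 5339 for Dark 4 h against Dark 0 h, 184 replaced 867 for Dark 8 h against Dark 4 h, and 639 replaced 1293 for Light 0 h against Dark 8 h. In the ratio, 2310 replaced 1047, 3184 replaced 4968, 77 replaced 608 and 63 replaced 169 for the steps from Light 4 h, Dark 0 h, Dark 4 h and Dark 8 h. DESeq2 gave 2737 in place of 1795 for Dark 0 h against Light 8 h and 1756 in place of 867 for Dark 8 h against Dark 4 h in GMUCT, and 1099 and 332 in place of 608 and 169 for the last steps of the ratio. When 1 library was left out, the GMUCT count moved by over 1.5 times for Dark 0 h against Light 8 h (replicate 3 of Dark 0 h or any of Light 8 h), for Dark 8 h against Dark 4 h (replicates 1 or 3 of Dark 4 h, 2 of Dark 8 h), for Dark 4 h against Dark 0 h (replicate 2 of Dark 4 h, 3505 to 5558) and for Light 8 h against Light 4 h (replicate 1 of Light 8 h, 1793 to 3056). So did the mRNA counts of Dark 8 h against Dark 4 h (replicate 2 of Dark 4 h, 1922 to 3245) and Light 0 h against Dark 8 h (replicate 1 of Dark 8 h or 3 of Light 0 h, 607 to 1243). The ratio counts of these steps ran from 320 to 692 (GMUCT replicates 1 of Dark 4 h and 2 of Dark 8 h) and from 79 to 220 (replicate 3 of Dark 8 h and replicates 2 and 3 of Light 0 h, in either assay). COP1-like in mRNA, at 1 to 39 reads a library at its low times, is the value most limited by depth.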

Other observations

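The identifier after COP1-like in the numbering, gene:Solyc11g011990.2, also had its highest mean in GMUCT at Dark 0 h, at 124 CPM, against 37.6 CPM at Light 8 h and 53.7 CPM at Dark 4 h. Its mRNA was 66.8 CPM at Dark 0 h, 113 CPM at Light 8 h and 58.1 CPM at Dark 4 h. Like that of COP1-like, it was lower at Dark 0 h than at Light 8 h, but it did not return at Dark 4 h. The other near identifiers did not all follow. In GMUCT from Light 8 h to Dark 0 h, the one just before COP1-like, Solyc11g011970, went from 27.7 to 24.6 CPM, Solyc11g012000 from 41.9 to 17.3 CPM and Solyc11g011960 from 152 to 208 CPM. Whether reads of these genes overlap was not tested, as no coordinates were used. The first gene was chosen for its place beside COP1-like after its values were seen.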
